A study of Homo sapiens with 27 samples.

Results

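Matrix metalloproteinase 2 (MMP2, gelatinase A), the proteins that activate it at the cell surface and the proteins that inhibit it were followed in the RNA of U2OS cells, an established human osteosarcoma line. The 10 genes were chosen by name from the 55882 symbols counted in each library: MMP2, the 4 transmembrane membrane-type MMPs (MMP14, MMP15, MMP16 and MMP24), the 4 tissue inhibitors of metalloproteinases (TIMP1, TIMP2, TIMP3 and TIMP4) and RECK. Poly(A) RNA was sequenced from 3 stable lines, namely cells with the empty pLKO.1 vector (control), cells with the MMP2 hairpin labelled 23 (MMP2sh1) and cells with the MMP2 hairpin labelled 26 (MMP2sh2). The sample titles call the control libraries WT, and the treatment text of the labels gives these cells the blank vector. Per the study's methods, transduced cells were selected with puromycin, so that each line is taken here as 1 selected population. RNA was taken from subconfluent cultures at 30% confluence (day −2), at confluence (day 0) and from overconfluent cultures (day +2), with 3 biological replicate libraries in each of the 9 groups of line and day.

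MMP2 is secreted as an inactive zymogen. In the textbook model of its activation, MMP14 on the cell surface binds the inhibitory domain of TIMP2, the free end of TIMP2 docks the MMP2 zymogen, and a neighbouring MMP14 molecule that carries no inhibitor cuts the propeptide. TIMP2 is therefore both an adaptor of activation and an inhibitor, and osteosarcoma cells are known to use these enzymes to degrade collagen.

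The libraries held 33580129 to 59374327 counts on genes (median 40075178), and every pair of replicates within a group correlated at 0.995 or above across 19118 genes. Of the marker genes described here, COL1A1 (group means of 1111 to 1432 CPM, counts scaled to library size) and SPARC (1186 to 2064 CPM) were abundant and RUNX2 (32.8 to 62.0 CPM) was present, whereas IBSP was at 0 in all libraries and SP7, COL1A2 and BGLAP did not exceed 0.394 CPM in any group. ALPL reached 5.87 CPM and SPP1 23.8 CPM. The epithelial markers EPCAM (3.23 to 5.99 CPM) and CDH1 (at most 1.65 CPM), the leukocyte marker PTPRC (at most 1.17 CPM) and the endothelial marker CDH5 (at most 0.436 CPM) were low. Replicate 1 of MMP2sh1 at day −2 stood apart from its group, since the chi-square of its counts, divided by the degrees of freedom, was 19.3 and 24.6 against its partners, where all other pairs of replicates lay between 4.74 and 13.1. It held 4.24% of its counts on mitochondrial genes, and its partners 6.11% and 6.55%. In such bulk RNA, fewer cells of a kind and less RNA per cell cannot be told apart.

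Of the 10 genes, 9 had reads in all 27 libraries and passed the filter on low counts in all comparisons. TIMP4, a secreted inhibitor known mainly from heart and brain, was the exception. It had no read in 17 libraries, between 1 and 12 reads in the other 10, and 35 reads in all, and it passed the filter in no comparison. Its level cannot be compared between groups at this depth, since a count of 0 allows up to 3 reads.

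Levels of different genes were compared per length of their merged exons (RPKM, which is CPM divided by length in kilobases). In control cells at day −2, TIMP1 mRNA stood far above the rest at 428 ± 16.8 RPKM (SD, n = 3). TIMP2 (53.6 ± 2.45 RPKM) and MMP2 (49.0 ± 2.51 RPKM) followed with overlapping ranges, then MMP14 (31.6 ± 0.962 RPKM). Within each of these libraries TIMP2 was above MMP2, at ratios of 1.08 to 1.12. TIMP3 (15.4 ± 0.523 RPKM) and MMP24 (14.9 ± 0.525 RPKM) also overlapped across libraries, with TIMP3 slightly the higher within each library. The lowest of the 9 were MMP15 (7.62 ± 0.707 RPKM), MMP16 (5.73 ± 0.0867 RPKM) and RECK (3.29 ± 0.192 RPKM), which did not overlap each other. At day 0 MMP2 (68.8 ± 1.34 RPKM) stood above TIMP2 (62.3 ± 0.434 RPKM), with no overlap. At day +2 the distance was larger, 105 ± 2.22 against 70.7 ± 1.39 RPKM, and MMP24 had dropped to the bottom of the 9 with 2.72 ± 0.397 RPKM. With the longest transcript in place of merged exons, the TIMP2 level was higher than the MMP2 level at day 0 as well (ratio 1.15 in place of 0.905), so the order of these genes at day 0 rests on the length used. The lengths are from GENCODE and may differ from the annotation that was counted.

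**Figure D1:**
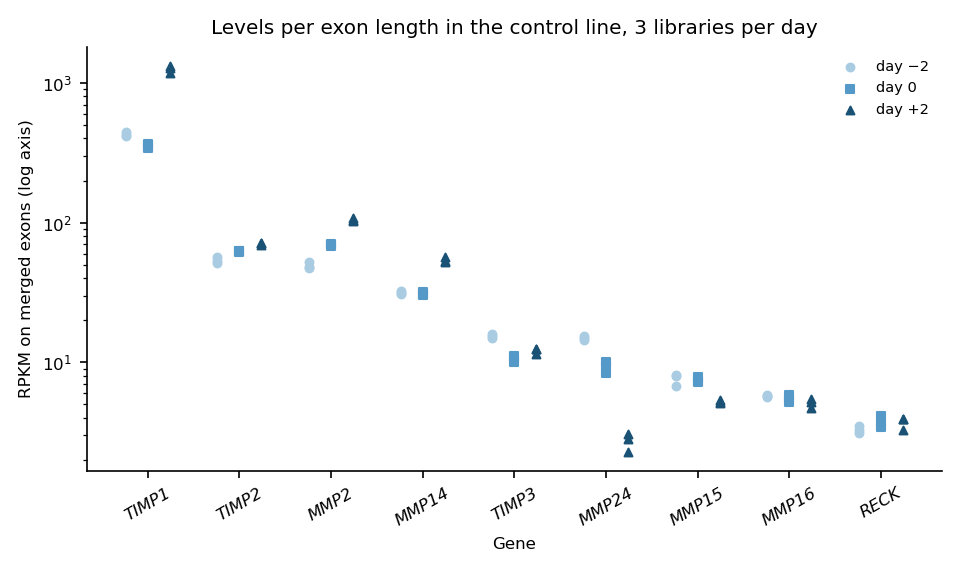
Levels of 9 genes in the 3 control libraries of each day, in RPKM on merged exons with a log axis, one point per library and one symbol per day. TIMP1 lies between 343 and 1316 RPKM, above all other genes at each day, and MMP24 falls from 14.9 to 2.72 RPKM.

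The hairpins target MMP2, which lies at chr16:55423612-55540603 on the plus strand of GRCh37 with 13 exons in its canonical transcript. In control libraries MMP2 measured 222, 225.9 and 244 CPM at day −2, 317, 324 and 330 CPM at day 0, and 504, 483 and 494 CPM at day +2. In MMP2sh1 it measured 33.9, 39.3 and 46.7 CPM at day −2, 53.7, 57.1 and 65.6 CPM at day 0, and 97.9, 94.1 and 101 CPM at day +2. In MMP2sh2 it measured 135, 140 and 158 CPM, then 152, 157 and 159 CPM, then 278, 291 and 269 CPM. All hairpin libraries were below all control libraries of their day, and MMP2sh1 was below MMP2sh2 at each day without overlap.

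In edgeR quasi-likelihood fits, with p-values adjusted by Benjamini and Hochberg's method over all genes tested (threshold 0.05), MMP2 in MMP2sh1 differed from control by log2 fold changes of −2.53, −2.47 and −2.34 (SE 0.08, 0.05 and 0.05, adjusted p = 1.06e-17, 3.05e-27 and 2.23e-23) over the 3 days. The mean level was 17.3%, 18.2% and 19.8% of control. In MMP2sh2 the differences were smaller, −0.70 (SE 0.06, adjusted p = 2.15e-08), −1.06 (SE 0.04, adjusted p = 6.21e-20) and −0.82 (SE 0.05, adjusted p = 5.04e-16), which left 62.6%, 48.2% and 56.6% of the control level. Set directly against MMP2sh2, MMP2sh1 held less MMP2 mRNA by 1.84, 1.41 and 1.52 on the log2 scale (log2 fold changes of −1.84, −1.41 and −1.52, adjusted p = 5.39e-15, 5.76e-20 and 1.26e-14). The overconfluent MMP2sh2 cells, at a mean of 279 CPM, held more MMP2 mRNA than subconfluent control cells, at 231 CPM.

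**Figure D2:**
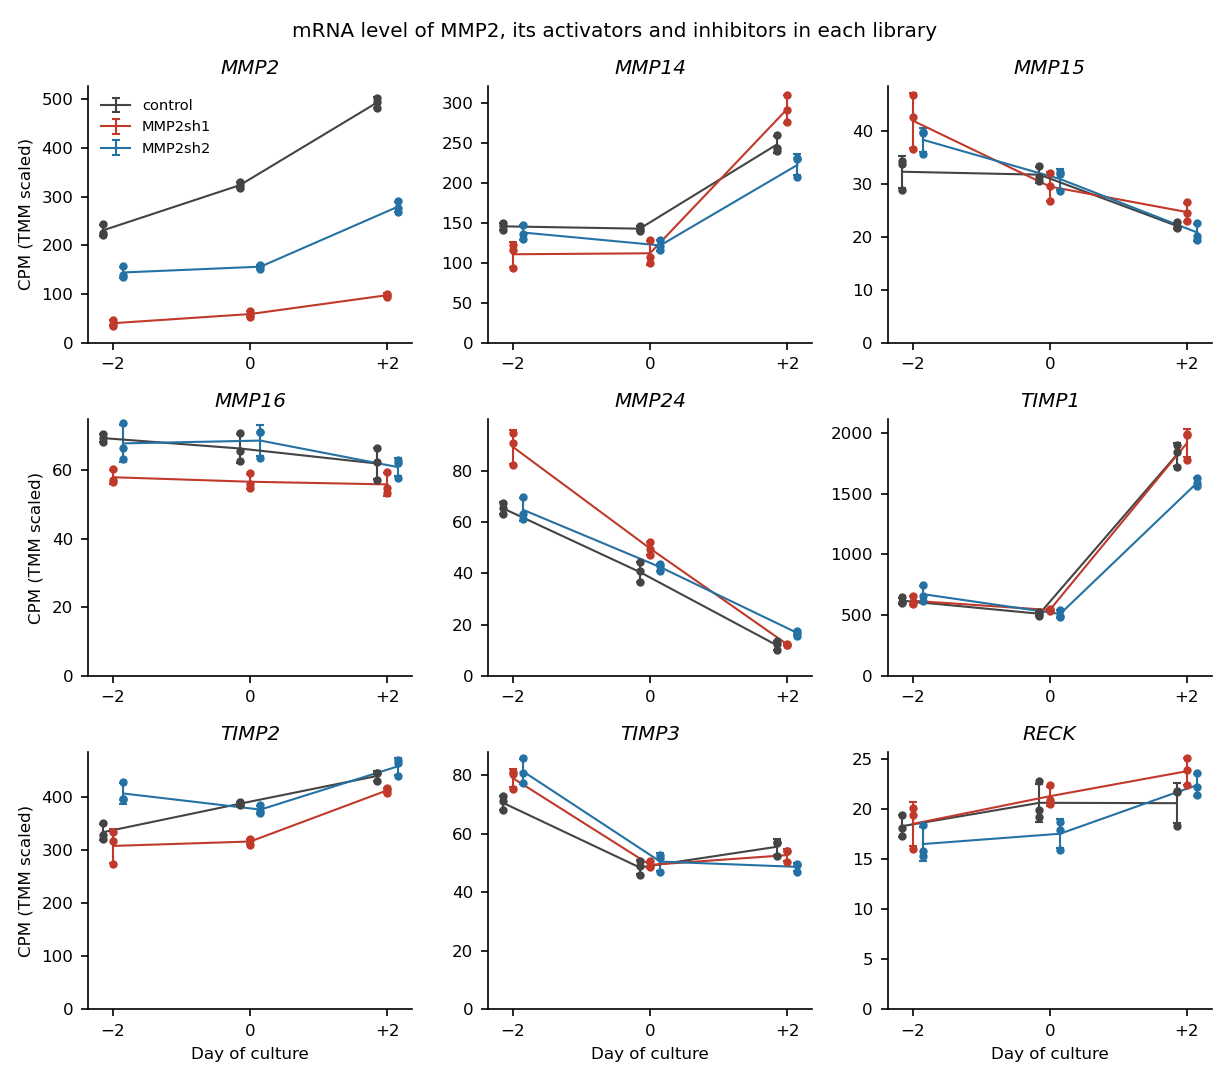
CPM with TMM scaling against day of culture for 9 genes in control, MMP2sh1 and MMP2sh2. Points are libraries, lines join the means of 3 libraries, bars are SD, and the lines are offset slightly around each day. MMP2 separates the 3 lines at all days, whereas TIMP1 rises at day +2 from 512 to 1820 CPM in control and MMP24 falls in all 3 lines.

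With MMP2 reduced, the question was how the mRNAs of its activators and inhibitors differed between the lines. In MMP2sh1 at day −2, 5 of the 9 genes tested passed the threshold, MMP2 included, beside 11.6% of all genes tested. MMP14 and MMP16 were lower and MMP15 and MMP24 were higher, while no TIMP passed. Without MMP2sh1 replicate 1, the library that stood apart, these 5 calls held, with MMP14 at −0.29 (adjusted p = 0.000721) and MMP15 at 0.47 (adjusted p = 0.000357). At day 0, 5 of 9 passed beside 16.8% of all genes, with MMP14, MMP16 and TIMP2 lower and MMP24 higher. At day +2, 2 of 9 passed beside 14.8% of all genes, MMP2 and MMP14, and MMP14 was now higher. In MMP2sh2, 3 of 9 passed at day −2 (11.0% of all genes), 2 of 9 at day 0 (12.9% of all genes) and 3 of 9 at day +2 (6.32% of all genes). MMP2, the target of the hairpins, passed in all 6 of these comparisons and is part of each count. Besides MMP2, only MMP14 passed in MMP2sh1 at day +2 and in MMP2sh2 at day 0. Both lines were set against the same control libraries, so their values below are given side by side and are not independent of each other.

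MMP14 (MT1-MMP, chr14:23305769-23318250) is the main cell-surface activator of the MMP2 zymogen. At day −2 it measured 141, 150 and 146 CPM in control and 93.5, 116 and 123 CPM in MMP2sh1. At day 0 it measured 143, 140 and 146 CPM in control and 100, 107 and 129 CPM in MMP2sh1. At day +2 the order was the opposite, 261, 244 and 241 CPM in control and 311, 291 and 277 CPM in MMP2sh1. The libraries of the 2 lines did not overlap at any day. The log2 fold changes were −0.40 (SE 0.07, adjusted p = 0.000466), −0.36 (SE 0.06, adjusted p = 3.14e-05) and 0.24 (SE 0.05, adjusted p = 0.00225), and each passed with any single library left out. In MMP2sh2 the MMP14 values at day 0 were 129, 121 and 116 CPM, a log2 fold change of −0.23 (SE 0.05, adjusted p = 0.00087) that had an adjusted p of 0.0512 when all 27 libraries were fitted together. MMP14 did not pass in MMP2sh2 on the other days (−0.10 and −0.15, adjusted p = 0.286 and 0.0957).

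MMP15 (MT2-MMP) and MMP16 (MT3-MMP) are relatives of MMP14 that can also activate MMP2. MMP15 measured 28.8, 34.3 and 33.7 CPM in control and 36.5, 42.6 and 46.7 CPM in MMP2sh1 at day −2, a log2 fold change of 0.38 (SE 0.09, adjusted p = 0.00471). That call was lost without control replicate 1, the lowest of the 3 control values (0.30, adjusted p = 0.058). In MMP2sh2 the MMP15 log2 fold change at day −2 was 0.23 (adjusted p = 0.0595), and it passed without MMP2sh2 replicate 1 (0.28, adjusted p = 0.0471). At days 0 and +2 neither line passed for MMP15.

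MMP16 was lower in MMP2sh1, with 57.1, 60.2 and 56.5 CPM against 69.4, 68.3 and 70.4 CPM in control at day −2, and 56.1, 59.1 and 54.8 CPM against 65.6, 70.8 and 62.6 CPM at day 0. These were log2 fold changes of −0.26 (SE 0.06, adjusted p = 0.00568) and −0.23 (SE 0.06, adjusted p = 0.00418), with no overlap. At day +2 the MMP16 difference was −0.15 (adjusted p = 0.159), and the libraries overlapped. In MMP2sh2 the MMP16 values lay within −0.05 to 0.04 of control on the log2 scale (adjusted p = 0.71, 0.716 and 0.934 for the 3 days).

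MMP24 (MT5-MMP, chr20:33814493-33864801), best known from the nervous system, was higher than control in MMP2sh1 at days −2 and 0 and in MMP2sh2 at day +2. At day −2 it measured 67.5, 65.6 and 63.0 CPM in control and 90.9, 82.1 and 94.7 CPM in MMP2sh1, a log2 fold change of 0.44 (SE 0.06, adjusted p = 2.46e-05). At day 0 it measured 36.4, 40.8 and 44.2 CPM in control and 47.1, 52.3 and 49.6 CPM in MMP2sh1, a log2 fold change of 0.29 (SE 0.07, adjusted p = 0.00195). At day +2 MMP2sh1 was within the control range (0.05, adjusted p = 0.851). In MMP2sh2 the early days were close to control (−0.04 and 0.06, adjusted p = 0.785 and 0.651), whereas at day +2 it measured 15.7, 17.6 and 16.8 CPM against 13.4, 12.3 and 10.0 CPM in control (0.50, SE 0.11, adjusted p = 0.0018). In the GENCODE annotation, 18.4% of the merged exon length of MMP24 is shared with the antisense gene MMP24OS, and the counting did not use strand. The annotation behind the counts is not given in the sources used here, so whether reads on these bases were left out is not known.

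TIMP1 (chrX:47441807-47446188), a broad inhibitor of secreted MMPs, passed in no comparison of MMP2sh1 with control. Its log2 fold changes in MMP2sh1 were 0.00 in size at day −2 (interval of 2 SE, −0.11 to 0.11), 0.08 at day 0 (0.01 to 0.16, adjusted p = 0.125) and 0.07 at day +2 (−0.03 to 0.17). In MMP2sh2 at day +2 TIMP1 measured 1585, 1628 and 1561 CPM against 1716, 1840 and 1903 CPM in control, all lower. The log2 fold change of TIMP1 there was −0.19 (SE 0.04, adjusted p = 0.00445), and it did not pass without control replicate 3, the highest of the control values (−0.15, adjusted p = 0.0937).

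TIMP2 (chr17:76849059-76921469), the adaptor between MMP14 and the MMP2 zymogen, was lower in MMP2sh1 at day 0 and higher in MMP2sh2 at day −2. At day 0 it measured 390, 385 and 385 CPM in control and 309, 320 and 317 CPM in MMP2sh1, a log2 fold change of −0.30 (SE 0.04, adjusted p = 3.97e-07). At day −2 it measured 328, 321 and 350 CPM in control and 395, 395 and 428 CPM in MMP2sh2, a log2 fold change of 0.27 (SE 0.05, adjusted p = 0.00201). Both calls held with any single library left out. In the other 4 comparisons with control the TIMP2 log2 fold change lay between −0.12 and 0.06 and did not pass.

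TIMP3 (chr22:33197691-33259028) stays bound to the extracellular matrix and also inhibits adamalysin proteases. Its values in MMP2sh2 at day −2 were 77.5, 80.7 and 85.8 CPM against 71.1, 72.8 and 68.1 CPM in control. The log2 fold change of TIMP3, 0.18 (SE 0.06, adjusted p = 0.0446), was close to the threshold, and it passed in 1 of the 6 fits with a library left out (without MMP2sh2 replicate 1), with adjusted p of up to 0.152 in the others. It was also lost with library totals (adjusted p = 0.103), without a filter on low counts (adjusted p = 0.0712) and with the replicate number as a block (adjusted p = 0.0581). RECK (chr9:36036910-36124452), a membrane-anchored inhibitor of MMP2 and MMP14, passed in no comparison with control. Its log2 fold changes lay between −0.24 and 0.21, the former in MMP2sh2 at day 0 (adjusted p = 0.0828).

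**Figure D3:**
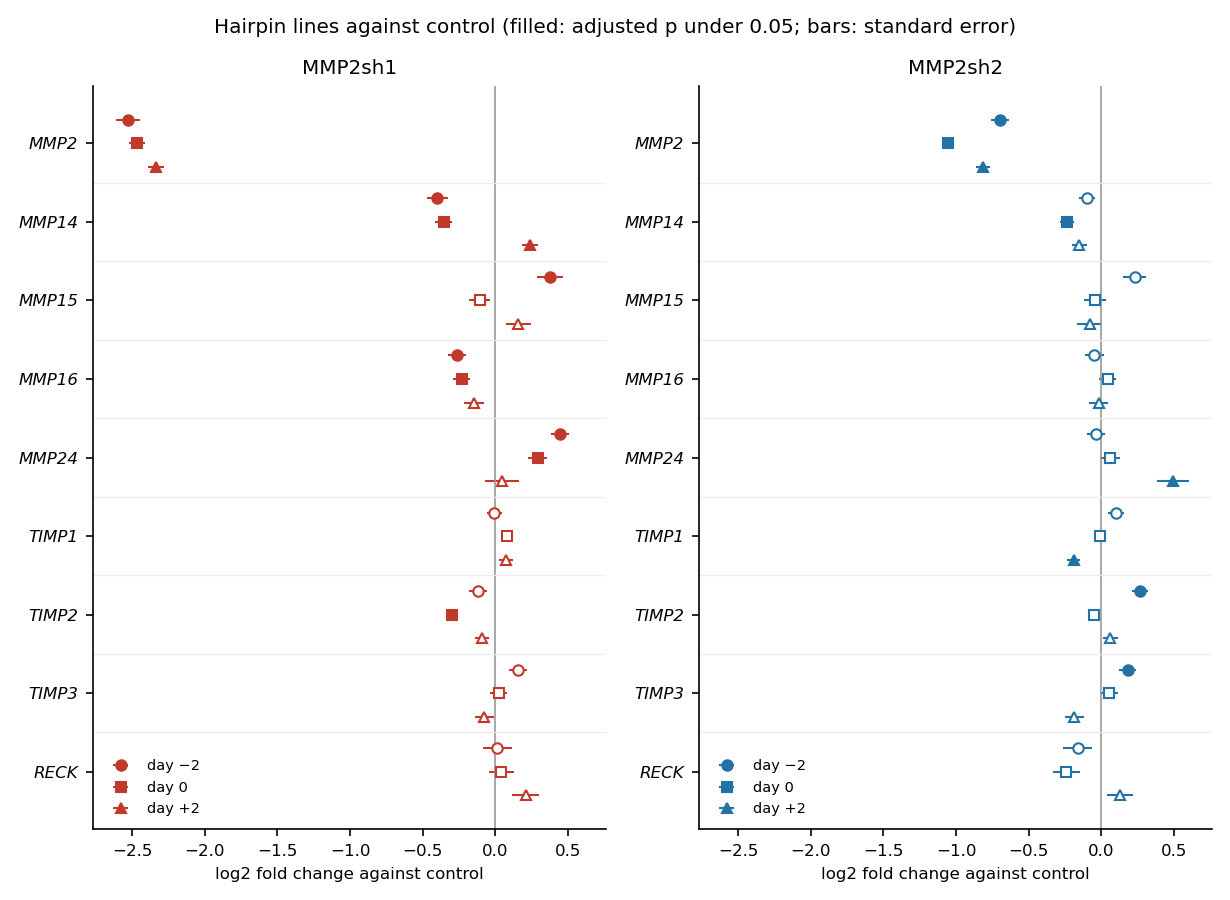
Log2 fold change of each gene in MMP2sh1 (left) and MMP2sh2 (right) against control at days −2, 0 and +2, with bars of 1 standard error and filled symbols where the adjusted p is under 0.05. MMP2 lies at −2.53 to −2.34 in MMP2sh1 and at −1.06 to −0.70 in MMP2sh2, and the other genes lie within −0.40 to 0.50.

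The 2 hairpin lines were also compared with each other, a contrast that does not use the control libraries. At day −2, 4 of 9 genes passed beside 10.7% of all genes. Besides MMP2, MMP14 (−0.31, adjusted p = 0.00925) and TIMP2 (−0.39, adjusted p = 0.00017) were lower and MMP24 (0.47, adjusted p = 3.62e-05) was higher in MMP2sh1. The MMP14 call was lost without MMP2sh1 replicate 1, the library with the lowest MMP14, MMP2 and TIMP2 of its group (−0.19, adjusted p = 0.0893). MMP16 did not pass at day −2 (−0.22, adjusted p = 0.0568) but did without MMP2sh2 replicate 3 (−0.28, adjusted p = 0.0208), under DESeq2 (adjusted p = 0.0451) and with all 27 libraries fitted together (adjusted p = 0.0196).

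At day 0, 5 of 9 genes passed between MMP2sh1 and MMP2sh2, MMP2 included, beside 18.5% of all genes. MMP16 (−0.27, adjusted p = 0.000725) and TIMP2 (−0.25, adjusted p = 2.8e-06) were lower in MMP2sh1, and MMP24 (0.23, adjusted p = 0.00651) and RECK (0.29, adjusted p = 0.0171) were higher. The RECK call was lost without MMP2sh1 replicate 2 (0.25, adjusted p = 0.0956), without MMP2sh2 replicate 3 (0.22, adjusted p = 0.114) and with all 27 libraries together (adjusted p = 0.059), and the MMP24 call was lost without MMP2sh1 replicate 2 (0.19, adjusted p = 0.0714) or MMP2sh2 replicate 1 (0.21, adjusted p = 0.0504). MMP14 (−0.12, adjusted p = 0.183) passed without MMP2sh1 replicate 3 (−0.23, adjusted p = 0.00235), and TIMP1 (0.10, adjusted p = 0.064) passed without MMP2sh2 replicate 2 (0.15, adjusted p = 0.00157).

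At day +2, 4 of 9 genes passed, MMP2 included, beside 7.86% of all genes. MMP14 (0.39, adjusted p = 8.58e-05) and TIMP1 (0.26, adjusted p = 0.000365) were now higher in MMP2sh1 than in MMP2sh2, and MMP24 was lower (−0.45, adjusted p = 0.00462). TIMP2 did not pass (−0.16, adjusted p = 0.0541), but did under DESeq2 (adjusted p = 0.00871) and without MMP2sh1 replicate 1 (adjusted p = 0.0475) or MMP2sh2 replicate 3 (−0.19, adjusted p = 0.0149).

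Over the days of culture of the control, log2 fold changes reached −2.48 for MMP24 and 1.54 for TIMP1. In control cells from day −2 to day +2, 8 of the 9 genes passed, beside 56.8% of all genes, so that passing is common in this comparison. MMP2, MMP14, TIMP1 and TIMP2 rose, and MMP15, MMP16, MMP24 and TIMP3 fell. RECK measured 18.1, 17.4 and 19.5 CPM at day −2 and 21.8, 18.3 and 21.7 CPM at day +2 and did not pass (0.16, adjusted p = 0.152), although it did without control replicate 2 of day +2 (0.23, adjusted p = 0.0496). From day −2 to day 0, 5 of 9 genes passed beside 35.5% of all genes, and from day 0 to day +2, 7 of 9 passed beside 41.4%.

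MMP2 rose in control in both intervals, by a log2 fold change of 0.49 (SE 0.05, adjusted p = 2.21e-09) to day 0 and 0.61 (SE 0.04, adjusted p = 4.43e-13) from day 0 to day +2, which came to 1.08 (SE 0.05, adjusted p = 1.77e-16) over all. MMP14 did not pass from day −2 to day 0 (−0.03, adjusted p = 0.679) and then rose by 0.80 (SE 0.05, adjusted p = 7.21e-15). TIMP2 rose by 0.22 (adjusted p = 0.000271) and 0.19 (adjusted p = 0.000487). The 3 genes of the activation complex were thus all highest in overconfluent control cells, with no overlap with the earlier days.

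TIMP1 fell to day 0, from 608, 647 and 602 CPM to 527, 511 and 497 CPM (−0.27, SE 0.04, adjusted p = 7.3e-06), and then rose to 1716, 1840 and 1903 CPM at day +2 (1.84, SE 0.04, adjusted p = 8.51e-24). TIMP3 also fell to day 0, from 71.1, 72.8 and 68.1 CPM to 50.6, 48.9 and 45.9 CPM (−0.54, SE 0.06, adjusted p = 1.67e-08). Its later difference of 0.20 (adjusted p = 0.00944) was lost without control replicate 3 of day 0 (0.17, adjusted p = 0.0632).

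MMP24 fell most of the 9, from 67.5, 65.6 and 63.0 CPM at day −2 to 36.4, 40.8 and 44.2 CPM at day 0 (−0.69, SE 0.07, adjusted p = 2.22e-09) and to 13.4, 12.3 and 10.0 CPM at day +2 (−1.76 from day 0, SE 0.10, adjusted p = 1.19e-15). Its level at day +2 was 18.2% of that at day −2. MMP15 did not pass to day 0 (−0.02, adjusted p = 0.861) and fell thereafter, to 21.6, 21.8 and 22.7 CPM (−0.52, SE 0.08, adjusted p = 1.66e-06). MMP16 changed least of those that passed from day −2 to day +2 (−0.18, SE 0.06, adjusted p = 0.0109). Its call was lost without control replicate 3 of day +2 (−0.13, adjusted p = 0.0921) and with library totals in place of TMM scaling (−0.08, adjusted p = 0.255), a scaling that shifted the median of all genes to 0.13.

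The promoters of the 3 genes with the largest changes over the culture of the control, among the 7 of the 10 genes with an entry in the RefSeq promoter table, are shown because the mRNAs moved in opposite directions, MMP24 down and TIMP1 and MMP14 up. The windows begin 250 bases before the RefSeq start site and end before the first annotated exon base. They were taken from the GRCh38.p14 table and placed on GRCh37 by exact match, at chr20:33814243-33814492 (250 bases), chrX:47441585-47441806 (222 bases) and chr14:23305544-23305768 (225 bases), all on the plus strand. Capitals mark GGGCGG or CCGCCC, the core letters of the GC box, and TGAGTNA or TNACTCA, letters of the kind that AP-1 binds.
MMP24: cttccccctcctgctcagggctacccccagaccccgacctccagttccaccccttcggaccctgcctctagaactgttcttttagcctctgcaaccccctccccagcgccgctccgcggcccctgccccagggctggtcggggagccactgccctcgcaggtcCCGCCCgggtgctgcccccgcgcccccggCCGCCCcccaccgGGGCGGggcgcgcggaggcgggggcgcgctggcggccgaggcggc
TIMP1: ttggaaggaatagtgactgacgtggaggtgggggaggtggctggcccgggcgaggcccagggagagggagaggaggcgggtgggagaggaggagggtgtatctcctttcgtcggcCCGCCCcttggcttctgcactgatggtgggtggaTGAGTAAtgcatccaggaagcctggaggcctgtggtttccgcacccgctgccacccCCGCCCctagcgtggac
MMP14: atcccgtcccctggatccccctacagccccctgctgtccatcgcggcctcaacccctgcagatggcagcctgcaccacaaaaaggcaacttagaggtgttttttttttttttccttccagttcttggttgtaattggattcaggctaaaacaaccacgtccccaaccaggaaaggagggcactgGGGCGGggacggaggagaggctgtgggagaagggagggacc

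The MMP24 window held 3 GC box matches, the TIMP1 window 2 and the MMP14 window 1. The letters TGAGTNA were found in TIMP1 alone of the 3, as TGAGTAA beginning 101 bases before the start site. Of the 35116 promoters in the table, cut to the same 250 bases, 42.6% held a GC box match and 10.8% held TGAGTNA on either strand. G and C made up 77.6% of the 250 bases in MMP24, above 93.8% of all promoters, 64.8% in TIMP1 and 56.8% in MMP14. A match describes letters in the window and says nothing of a factor binding there.

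In MMP2sh1 from day −2 to day +2, 8 of 9 genes passed beside 54.9% of all genes, and in MMP2sh2 8 of 9 passed beside 54.7%. In both lines the gene that did not pass was MMP16 (−0.07, adjusted p = 0.417 in MMP2sh1 and −0.15, adjusted p = 0.0766 in MMP2sh2), which passed in MMP2sh2 without replicate 3 of day −2 (−0.22, adjusted p = 0.00975). MMP2 rose in both lines, by 1.27 (SE 0.09, adjusted p = 1.33e-11) in MMP2sh1 and 0.96 (SE 0.06, adjusted p = 1.15e-14) in MMP2sh2. RECK, which had not passed in control, was higher at day +2 by 0.34 in MMP2sh1 (adjusted p = 0.00599) and 0.44 in MMP2sh2 (adjusted p = 0.000294). The RECK call in MMP2sh1 was lost without replicate 3 of day −2 (0.24, adjusted p = 0.052). TIMP2 in MMP2sh2 changed by 0.18 (adjusted p = 0.00677), a call lost without replicate 1 (0.14, adjusted p = 0.0745) or 2 (0.16, adjusted p = 0.0526) of day −2 or replicate 1 of day +2 (0.15, adjusted p = 0.0612).

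**Figure D4:**
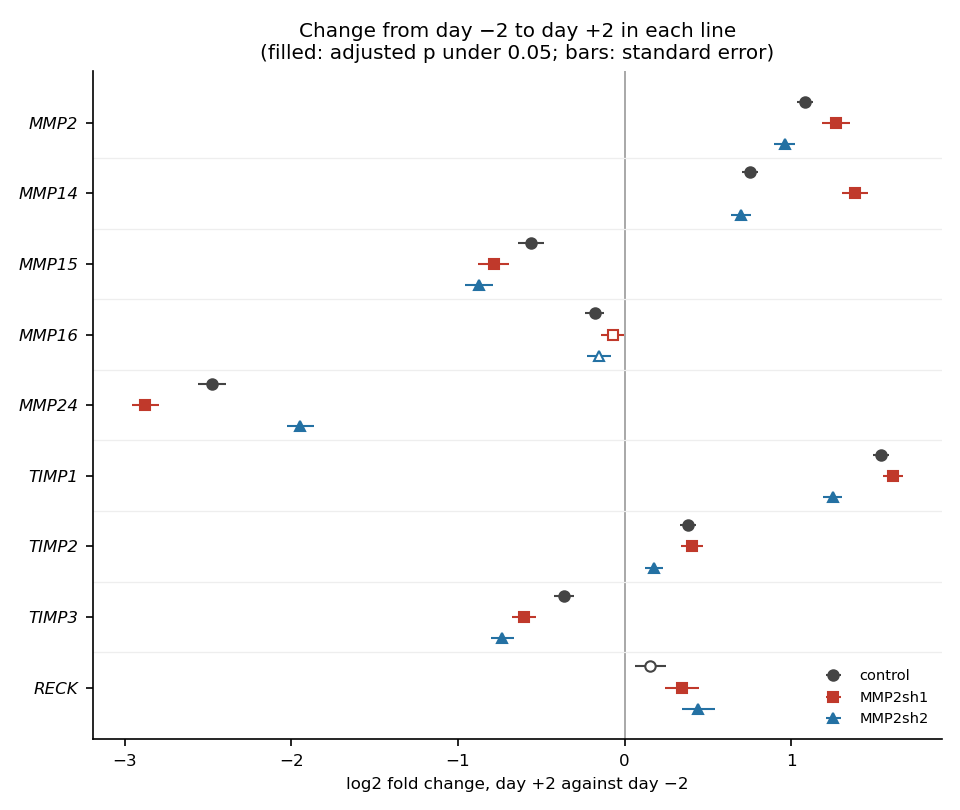
Log2 fold change from day −2 to day +2 of each gene in control, MMP2sh1 and MMP2sh2, with bars of 1 standard error and filled symbols where the adjusted p is under 0.05. MMP24 lies between −2.88 and −1.95 and TIMP1 between 1.25 and 1.61, and MMP14 in MMP2sh1 (1.38) stands apart from the other two lines (0.75 and 0.70).

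Whether the change over culture differed between a hairpin line and control was tested directly, as an interaction of line and day on 12 libraries. In MMP2sh1, 2 of 9 genes passed beside 7.40% of all genes. The change of MMP14 was larger than in control by 0.64 on the log2 scale (SE 0.10, adjusted p = 5.67e-05), 1.38 against 0.75, and passed in all 12 fits with a library left out. That of MMP24 differed by −0.39 (SE 0.12, adjusted p = 0.0343), −2.88 against −2.48, and passed in only 3 of those 12 fits (without control replicate 1 of day −2, control replicate 3 of day +2 or MMP2sh1 replicate 2 of day −2), with adjusted p of up to 0.124 without control replicate 1 of day +2. In MMP2sh2, 3 of 9 genes passed beside 4.98% of all genes. The MMP24 change was smaller in size than in control (interaction 0.53, SE 0.12, adjusted p = 0.00406), and TIMP3 fell further (−0.37, SE 0.09, adjusted p = 0.0077).

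The rise of TIMP1 in MMP2sh2 was smaller than in control (interaction −0.29, SE 0.08, adjusted p = 0.0162), but it did not pass without control replicate 1 of day −2 (−0.26, adjusted p = 0.061), control replicate 2 (−0.27, adjusted p = 0.0528) or 3 (−0.24, adjusted p = 0.091) of day +2, or MMP2sh2 replicate 3 of day −2 (−0.22, adjusted p = 0.0546). The interaction of TIMP2 in MMP2sh2, −0.21, had an adjusted p of 0.0878 and passed under DESeq2 (adjusted p = 0.0231) and without control replicate 3 of day −2 (−0.25, adjusted p = 0.0432). MMP2 itself showed interactions of 0.20 (interval of 2 SE, 0.00 to 0.40, adjusted p = 0.276) in MMP2sh1 and −0.12 (−0.28 to 0.03, adjusted p = 0.433) in MMP2sh2. The former passed without MMP2sh1 replicate 3 of day −2, the highest MMP2 value of its group (0.30, adjusted p = 0.0354). For RECK, which passed in each hairpin line and not in control, the interactions were 0.20 (adjusted p = 0.465) and 0.29 (adjusted p = 0.247).

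Ratios of RPKM values within a library show how the mRNAs of inhibitor and protease stood to each other and are given as a description. For TIMP2 over MMP2 the 3 days of the control gave 1.09 ± 0.0232, 0.905 ± 0.0235 and 0.674 ± 0.00618 (SD, n = 3). In MMP2sh1 it was 5.86 ± 0.401, 4.09 ± 0.374 and 3.20 ± 0.0905, and in MMP2sh2 2.14 ± 0.0852, 1.82 ± 0.0409 and 1.24 ± 0.0359. In each line the ratio was lower at each later day, and no pair of days within a line overlapped. MMP2, the divisor here, is the target of the hairpins, so the order of the lines in this ratio does not describe TIMP2 alone. For TIMP2 over MMP14 the control days gave 1.70 ± 0.102, 2.02 ± 0.0449 and 1.32 ± 0.0515. MMP2sh1 was above control at day −2 without overlap (2.07 ± 0.0831), overlapped it at day 0 (2.12 ± 0.246) and was below it at day +2 (1.05 ± 0.0568). MMP2sh2 was above control at each day without overlap (2.19 ± 0.0688, 2.30 ± 0.145 and 1.53 ± 0.0374). With longest transcripts these ratios were larger throughout, for example 1.39 in place of 1.09 for TIMP2 to MMP2 in control at day −2.

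The composition of each family also shifted with the days. MMP14 made up 52.7% ± 0.438 of the summed RPKM of the 4 transmembrane membrane-type MMPs in control at day −2 and 80.5% ± 0.359 at day +2, while MMP24 went from 25.0% ± 1.21 to 4.06% ± 0.449. In MMP2sh1 the share of MMP14 ran from 40.5% ± 2.86 to 82.7% ± 0.656, and in MMP2sh2 from 50.3% ± 0.743 to 77.8% ± 1.24. TIMP1 made up 86.1% ± 0.726 of the summed TIMP RPKM in control at day −2, 82.9% ± 0.253 at day 0 and 93.8% ± 0.374 at day +2. The ratio of TIMP1 to TIMP2 in control went from 8.0 ± 0.638 through 5.68 ± 0.139 to 17.8 ± 1.06. With longest transcripts this ratio was lower in control, at 6.22, 4.41 and 13.8.

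**Figure D5:**
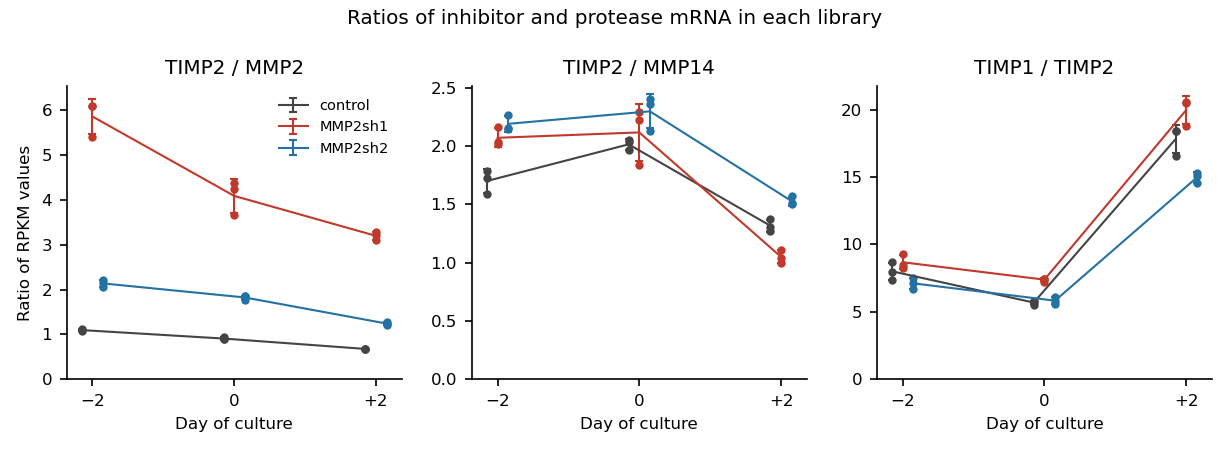
Ratios of RPKM values on merged exons in each library against day of culture, for TIMP2 over MMP2, TIMP2 over MMP14 and TIMP1 over TIMP2, with means, SD bars and a slight offset between the 3 lines. TIMP2 over MMP2, whose divisor is the target of the hairpins, is highest in MMP2sh1 (5.86 to 3.20) and lowest in control (1.09 to 0.674). TIMP1 over TIMP2 is highest at day +2 in all lines.

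A list of 17 other genes, drawn up around MMP2 activation, docking and clearance, was read in the same fits. Not all of them encode proteins that process, dock or clear MMP2. The list held the glycolipid-anchored MMP17 and MMP25, the convertases FURIN, PCSK5, PCSK6 and PCSK7, BSG, CD44, ITGAV, ITGB3, LRP1, THBS1, THBS2, CAV1, TFPI2, PCOLCE and A2M. In MMP2sh1, 0 were higher and 3 lower of 16 tested at day −2 (5.42% and 6.14% of all genes were higher and lower), 4 and 4 of 17 at day 0 (8.26% and 8.58%), and 4 and 4 of 17 at day +2 (7.68% and 7.11%). In MMP2sh2, 2 were higher and 1 lower of 16 at day −2 (4.71% and 6.33%), 2 and 5 of 16 at day 0 (7.07% and 5.81%), and 1 and 2 of 17 at day +2 (2.89% and 3.43%). In control from day −2 to day +2, 7 were higher and 7 lower of 17 (28.1% and 28.6%). With library totals in place of TMM scaling, the share of higher genes among all calls changed from 42.6% to 26.7% in MMP2sh2 at day −2, from 54.9% to 34.6% at day 0 and from 49.6% to 59.9% in the control over culture. The median log2 fold change of the list lay between −0.06 and 0.15 in the 6 hairpin comparisons and was −0.09 in the control over culture, beside medians of all genes between −0.003 and 0.03.

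Of this list, A2M and PCOLCE were lower in MMP2sh1 at all 3 days. A2M encodes alpha-2-macroglobulin, a secreted trap for proteases of many kinds. It measured 9.47 ± 0.850, 30.4 ± 1.62 and 214 ± 12.1 CPM in control at the 3 days and 3.75 ± 0.801, 14.5 ± 1.48 and 164 ± 11.3 CPM in MMP2sh1, log2 fold changes of −1.33, −1.07 and −0.38 (adjusted p = 2.72e-06, 2.29e-11 and 1.85e-05). In MMP2sh2 the A2M differences of the 3 days were −0.10, −0.47 and −0.50 (adjusted p = 0.667, 5.75e-05 and 5.67e-08). PCOLCE, an enhancer of procollagen processing, was lower in MMP2sh1 by smaller amounts (−0.30, −0.22 and −0.19, adjusted p = 0.00689, 0.00239 and 0.0284). The PCOLCE call at day −2 was lost without control replicate 2 (−0.27, adjusted p = 0.0565), and that at day +2 without any one control replicate (adjusted p = 0.0624 to 0.0942) or MMP2sh1 replicate 3 (−0.13, adjusted p = 0.207). In MMP2sh2 PCOLCE was lower at days 0 and +2 (−0.25 and −0.20, adjusted p = 0.000845 and 0.0346) and did not pass at day −2 (−0.03, adjusted p = 0.838), and the call at day +2 was lost without any one control replicate (adjusted p = 0.0811 to 0.128) or MMP2sh2 replicate 1 (adjusted p = 0.0914) or 3 (−0.13, adjusted p = 0.166).

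The list's largest changes over culture of the control were in A2M (4.49, adjusted p = 7.82e-26), ITGB3 (2.22, adjusted p = 2.11e-17) and CAV1 (−2.10, adjusted p = 6.12e-22). ITGB3 encodes the beta 3 integrin subunit, which pairs with alpha v in a receptor that can hold MMP2 at the cell surface. It measured 38.5 ± 3.10 CPM in control and 75.1 ± 3.30 CPM in MMP2sh1 at day +2 (0.97, adjusted p = 1.66e-11), and 40.4 ± 1.40 CPM in MMP2sh2 (0.08, adjusted p = 0.673). At day 0 ITGB3 was lower than control in MMP2sh2 (−0.66, SE 0.13, adjusted p = 0.000314) and did not pass in MMP2sh1 (0.21, adjusted p = 0.218), and at day −2 it passed in neither line. CAV1 encodes caveolin 1, the coat protein of caveolae, and went from 503 ± 8.62 to 119 ± 7.29 CPM in control. CAV1 was higher than control in MMP2sh1 at day 0 (0.31, adjusted p = 9.04e-08) and in MMP2sh2 at days −2 and 0 (0.23 and 0.34, adjusted p = 0.00541 and 2.49e-08). At day +2 it was lower in MMP2sh1 (−0.19, adjusted p = 0.0311), a call lost without control replicate 2 (−0.14, adjusted p = 0.253) or 3 (adjusted p = 0.0714) or MMP2sh1 replicate 1 (adjusted p = 0.0807) or 2 (adjusted p = 0.0623).

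Over the 9 group means of log2 CPM, which share the control, the lines and the days, the genes most like MMP2 by Pearson correlation among 16303 genes were HIP1 (r = 0.97), CHD3 (0.97), EFNA2 (0.96), MEX3A (0.96) and MED4 (0.95). CHD3 encodes a chromatin remodeller of the NuRD complex and went from 319 CPM in control and 231 CPM in MMP2sh1 at day −2 to 359 and 298 CPM at day +2. Of the other 8 genes described here, TIMP2 was the most like MMP2 (r = 0.71, with 4.24% of genes above it). MMP16 (0.54, 13.5% above), MMP14 (0.49, 17.2%), TIMP1 (0.34, 30.3%) and RECK (0.08, 47.3%) followed. TIMP3 (−0.32, 70.3%), MMP24 (−0.50, 84.7%) and MMP15 (−0.56, 89.0%) had negative correlations. These are descriptions over 9 points.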

How the data were processed

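Poly(A) RNA of U2OS cells was sequenced by the authors, and their methods and processing notes name Trim Galore 0.6.0 for trimming, STAR 2.7.3a for alignment to hg19 and HTSeq 2.0.0 for counting on exons, which ignored strand and followed a Samtools filter. What they deposited per gene symbol are raw counts without normalization. The 5 HTSeq summary lines, 16.8% to 19.1% of each file, were left out of library sizes and tests. The gene annotation they counted on is not given in the sources used here, and lengths and overlaps below may differ from it. Genes whose exons overlap lose reads under this counting, and near-identical copies can share them.

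Groups were taken from the labels, which give no batch. Each comparison was fitted on its own 6 libraries (interactions on 12) with edgeR 4.0.16 in R 4.3.3, TMM scaling, the filterByExpr filter set to counts of 10 and totals of 15, a two-sided quasi-likelihood test, and Benjamini-Hochberg adjustment over all genes tested at 0.05. The standard error is the log2 fold change divided by the square root of F. Levels are CPM with TMM factors over all 27 libraries, and RPKM divides them by merged exon length from GENCODE v44 on GRCh37. The fits were tested on simulated data. Alternatives were DESeq2 1.42.0, median-of-ratios scaling, library totals, no filter on low counts, all 27 libraries in one fit, the replicate number as a block, longest transcripts and each library left out.

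The 10 genes and the lists were chosen with earlier results of these data known. The text names the 10 genes, those of the 17 others called in one direction at all 3 days in a hairpin line, the 3 of them with the largest called change in control from day −2 to day +2, and the 5 genes most correlated with MMP2 over the 9 groups (log2 CPM, prior count 2, at least 1 CPM in a group). Hairpin sequences were not used here.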

Additional observations from a re-analysis of the deposited data

Results flagged for a closer look

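In 5 cases the change of a gene from day −2 to day +2 differed between a hairpin line and control by the interaction test. In MMP2sh1 these were MMP14 (0.64) and MMP24 (−0.39), and in MMP2sh2 they were MMP24 (0.53), TIMP1 (−0.29) and TIMP3 (−0.37), all on the log2 scale. MMP24 therefore appeared in both lines with opposite signs, and its mean at day −2 was 89.2 CPM in MMP2sh1, 64.7 CPM in MMP2sh2 and 65.4 CPM in control, whereas at day +2 it was 12.3, 16.7 and 11.9 CPM. The TIMP3 interaction had means of 70.7 and 55.6 CPM in control and of 81.3 and 48.7 CPM in MMP2sh2 behind it. The MMP14 interaction passed with any 1 of 12 libraries left out, as did those of MMP24 and TIMP3 in MMP2sh2. That of MMP24 in MMP2sh1 was lost in most of such fits, and that of TIMP1 in MMP2sh2 in some of them.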

How the results depend on the processing

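The share of all genes called ran from 4.98% (MMP2sh2 interaction) to 56.8% (control from day −2 to day +2). The comparisons share libraries, and the counts that follow include MMP2, the target of the hairpins. Of 144 log2 fold changes of the 9 genes, 74 were called. Of these 0 reversed under any alternative, 61 kept their call under all, and 13 lost it under at least 1. Of the values not called, 12 passed under at least 1 alternative and 20 reversed. Library totals gained 5 calls and DESeq2 gained 5, not all of which are named here. Library totals reversed, each uncalled, RECK in MMP2sh1 at day −2 (−0.00077), MMP14 (0.046), MMP15 (0.053) and MMP16 (0.012) in control at day 0 against day −2, and MMP16 in MMP2sh1 over culture (0.029). RECK in control from day 0 to day +2 reversed under DESeq2 (−0.0017), median-of-ratios scaling (−0.0043) and all 27 libraries in one fit (−0.020), which also reversed TIMP1 in MMP2sh2 at day 0 (0.0036) and left 1 gene called there in place of 2. With a library left out, the uncalled values that changed sign ran over these ranges: in MMP2sh1 at day −2 TIMP1 (−0.049 to 0.028), RECK (−0.049 to 0.11) and ITGB3 (−0.27 to 0.43), in MMP2sh1 at day 0 TIMP3 (−0.013 to 0.058) and RECK (−0.0074 to 0.12), in MMP2sh1 at day +2 MMP24 (−0.064 to 0.14), in MMP2sh2 at day −2 MMP16 (−0.12 to 0.0085), MMP24 (−0.080 to 0.0021), ITGB3 (−0.21 to 0.063) and PCOLCE (−0.074 to 0.023), in MMP2sh2 at day 0 MMP15 (−0.073 to 0.0099), MMP24 (−0.0087 to 0.13) and TIMP1 (−0.063 to 0.020), in MMP2sh2 at day +2 MMP16 (−0.071 to 0.031) and CAV1 (−0.056 to 0.038), in MMP2sh1 against MMP2sh2 at day −2 TIMP3 (−0.054 to 0.0017), in MMP2sh1 against MMP2sh2 at day 0 TIMP3 (−0.075 to 0.0026), in control at day 0 against day −2 MMP15 (−0.10 to 0.024), in control at day +2 against day 0 RECK (−0.047 to 0.085), in the MMP2sh1 interaction TIMP2 (−0.049 to 0.071), in the MMP2sh2 interaction MMP16 (−0.026 to 0.098). Calls among the 9 genes then numbered 3 to 6 in MMP2sh1 against MMP2sh2 at day 0 and 1 to 2 in the interaction of line and day in MMP2sh1, and those among the 17 other genes 2 to 5 in MMP2sh1 at day −2, 1 to 3 in MMP2sh2 at day −2 and 1 to 4 in MMP2sh2 at day +2. Alternatives for the 17 other genes were chosen after seeing the data. Without a filter on low counts 5 of them were called in MMP2sh1 at day −2 in place of 3, as with the replicate block, and under DESeq2 5 in MMP2sh2 at day −2 in place of 3. All genes called in MMP2sh1 at day −2 numbered 2202 of 34053 without the filter and 2597 of 18878 with the block, in place of 2184 of 18878. In MMP2sh2 at day −2 they numbered 2478 of 12945 with an adjusted p under DESeq2, in place of 2080 of 18845. PCOLCE at day +2 also lost its call with all 27 libraries together (adjusted p = 0.0648 in MMP2sh1 and 0.107 in MMP2sh2). The cause of these shifts was not tested. In no comparison did all 3 same-numbered correlations of replicates exceed 0.1, a cutoff that does not exclude a weaker pairing. With the replicate number as a block, all genes called rose from 2009 to 2974 in MMP2sh1 against MMP2sh2 at day −2. They fell from 2854 to 2126 in MMP2sh1 against control at day +2. With the number as a block, TIMP3 in MMP2sh2 at day −2 lost its call (0.18, adjusted p = 0.0581), MMP15 there gained one (0.23, adjusted p = 0.0472), as did MMP16 at day −2 (−0.22, adjusted p = 0.0128) and TIMP2 at day +2 (−0.16, adjusted p = 0.025) between the hairpin lines, and no other call of the 9 genes changed. In 1 comparison, MMP2sh1 against MMP2sh2 at day −2, all 3 MMP2sh1 libraries correlated best with their own number. Of the 17 others, PCOLCE and CAV1 lost theirs in MMP2sh1 at day +2 (adjusted p = 0.0701 and 0.0699). With 1 library left out the number of all genes called fell most in proportion in MMP2sh2 at day −2, from 2080 to 728 (11.0% to 3.75%) without control replicate 1. It moved by over 1.5 times in 4 of 6 such fits there, in 3 of 6 in MMP2sh2 at day +2 (6.32% to as low as 3.37%) and between the hairpin lines at days −2 (10.7% to 6.17%) and +2 (7.86% to 4.40%), in 1 of 6 in MMP2sh1 at day −2 (11.6% to 6.77%) and MMP2sh2 at day 0 (12.9% to 7.58%), and in 2 and 1 of 12 in the MMP2sh1 and MMP2sh2 interactions (7.40% to 4.38% and 4.98% to 2.52%). Depth left TIMP4 untested, and with 3 libraries a group small differences can be missed.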
